A study of Mus musculus with 12 samples.

Results

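Squalene carrying ethylene glycol, in the 4 versions labelled mono-, di-, tri- and tetra-SQ, was read as a chain length series of 1, 2, 3 and 4 glycol units, and the 4 compounds were compared with each other in 3T3-L1 cells. They were chosen by compound name, and all 8 arrays of the 4 compounds (2 each) out of 12 in the series were used; the remaining arrays, of control cells and of plain squalene, entered no fit. 3T3-L1 is a mouse preadipocyte line that turns into fat cells under a hormone mix. Each derivative was given at 5 µM for 14 days, and per the labels' protocol all groups passed from an induction medium with IBMX, dexamethasone and insulin to a medium with insulin, with the derivative present. The labels name the derivatives by their prefixes only, so the number of units is a reading of those prefixes. The question was whether the signal of any gene followed the chain length, and whether replicates 1 and 2 gave the same slope. Nothing in the labels says that the 2 arrays of a compound came from separate cultures, so the p-values measure the spread between these arrays, which may be technical. For the slope and the difference in slope, that spread also includes how far the compounds lay from a straight line.

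Squalene is the hydrocarbon that cells make from acetyl-CoA by way of mevalonate and close into the first sterol ring system on the route to cholesterol. It is insoluble in water, and glycol units are polar groups that make a hydrocarbon more water-soluble as their number grows. During differentiation, 3T3-L1 cells withdraw from division, take up glucose through the transporter Slc2a4, and build lipid droplets coated by Plin1, while the preadipocyte protein Dlk1 declines.

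RNA was measured on Clariom S mouse arrays as log2 signals of 22206 probe sets. The 8 arrays had medians of 5.50 to 5.59 and correlated across probe sets at 0.991 to 0.994 within replicate 1, at 0.989 to 0.994 within replicate 2, and at 0.968 to 0.979 between the replicates of a compound. Between the replicates, arrays of different compounds correlated at 0.970 to 0.981, so the 2 arrays of a compound were no more alike than those. Replicate 2 was separated from replicate 1 along principal component 1 (60.9% of the variance), and component 2 (11.8%) set tri-SQ replicate 2 (-47.17) apart from the other 7 arrays (-16.24 to 20.22). Tri-SQ replicate 2 also had the lowest upper quartile (8.95, against 9.04 to 9.16 in the others) and the smallest gap between positive and negative control probe sets (3.23, against 3.43 to 3.95). For part of the counts, gene differences and list medians of the pairs, values without tri-SQ replicate 2 are therefore given as well. The negative control probe sets had medians of 6.09 to 6.66 per array, and 51.3% of all probe sets lay below that median on all 8 arrays.

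The fat cell markers were present in all 8 arrays but at different levels in replicates 1 and 2. Plin1, which coats lipid droplets, stood at 15.09, 15.30, 15.05 and 14.68 in mono-, di-, tri- and tetra-SQ of replicate 1 and at 10.28, 10.67, 10.19 and 10.09 in replicate 2. Slc2a4, the insulin-responsive glucose transporter, stood at 11.92, 12.10, 12.23 and 11.70 in replicate 1 and at 6.67, 7.35, 7.20 and 7 in replicate 2. All 6 adipocyte markers (Adipoq, Plin1, Fabp4, Cidec, Lpl and Slc2a4) were lower in every replicate 2 array than in any replicate 1 array. Of the 4 preadipocyte markers measured, Dlk1 (1.90) and Thy1 (0.58) had the higher mean in replicate 2, and Ly6a (-0.44) and Cd34 (-0.025) the lower one (replicate 2 minus replicate 1, log2). Dlk1 lay at 15.57 to 16.45 in replicate 1 and at 17.82 to 18.18 in replicate 2, and the phosphatase Alpl at 9.49 to 10.77 in replicate 1 and at 4.40 to 5.21 in replicate 2. Of the markers of other cells, all 4 for endothelium and 4 of 6 for macrophages were below the median of all values (5.56) in all 8 arrays. So were 3 of 5 for osteoblasts, 3 of 5 for muscle and 1 of 5 for chondrocytes. Among those above it on all 8 arrays were the bone factor Runx2 (7.75 to 10.06), the cartilage factor Sox9 (9.60 to 11.40), the cartilage proteoglycan Acan (5.96 to 6.48), the muscle filament gene Des (6.01 to 8.98) and the macrophage protein Cd68 (6.03 to 7.04). For Plin1 the gap between the replicates was wider than that between compounds: it differed by 4.72 log2 units between the replicate means, and its slope was -0.13 per glycol unit. The replicate number was therefore a block in each fit, and slopes are also given within each replicate; the part of the replicate gap in the results was not tested. In these bulk samples, fewer cells of a type and less RNA per cell cannot be told apart.

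**Figure D1:**
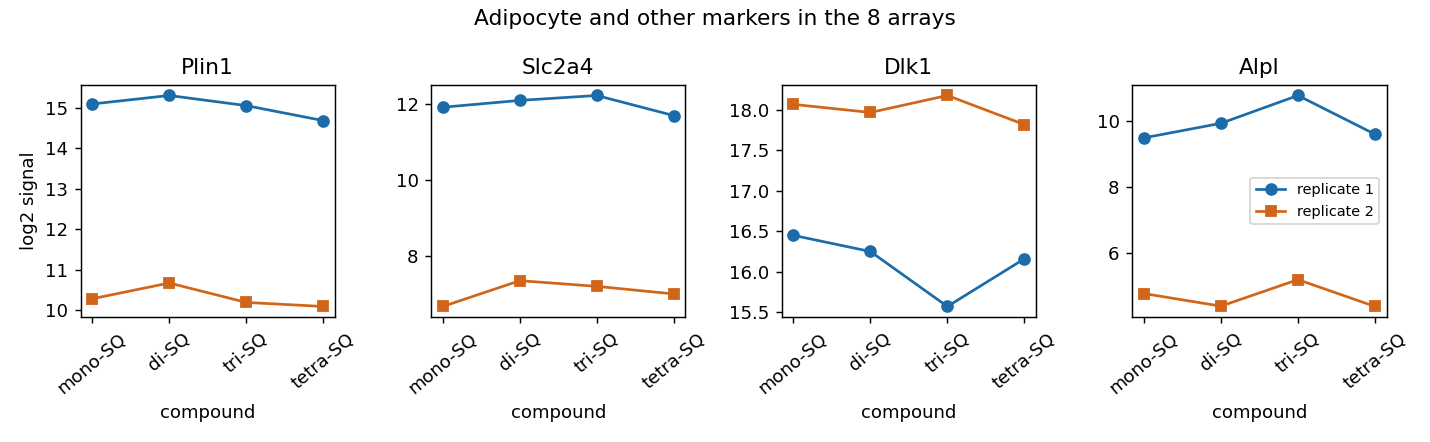
Log2 signal of Plin1, Slc2a4, Dlk1 and Alpl (y axes) in the arrays of mono-, di-, tri- and tetra-SQ (x axes, in order of glycol units), with circles for replicate 1 and squares for replicate 2, 1 array per point. The lines of the replicates lie apart for every gene (Plin1 at 14.68 to 15.30 in replicate 1 and 10.09 to 10.67 in replicate 2), and neither line climbs or drops steadily with chain length.

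No gene passed the test for a slope over the 4 compounds. In limma's moderated test with the replicate number as a block, 0 of 22206 probe sets (0%) passed the adjusted threshold of 0.05 (lowest adjusted p 0.999). At an unadjusted p under 0.05 there were 819 (3.69%), of which 360 had positive and 459 negative slopes. The median slope was -0.001 log2 units per glycol unit, the median size of a slope was 0.055, and the median 95% interval reached 0.18 to either side. Only 3 probe sets had slopes over 0.5 in size. These intervals are not adjusted for the number of tests, and the missing calls do not show that the compounds act alike.

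The positive slopes with the smallest p-values belonged to genes of unrelated functions. Glis3, which encodes a zinc finger transcription factor (GRCm38, chr19:28258851-28680265), had signals of 9.57, 9.80, 10 and 10.33 in mono-, di-, tri- and tetra-SQ of replicate 1 and of 7.60, 7.96, 7.84 and 8.63 in replicate 2. Both replicates were lowest in mono-SQ and highest in tetra-SQ, with a slope of 0.27 ± 0.07 per unit (SE; 95% interval 0.11 to 0.43; adjusted p = 0.999, limma). Fbxo33, an F-box protein of a ubiquitin ligase, had 6.28, 6.75, 6.57 and 7.03 in replicate 1 and 6.83, 7.31, 7.39 and 7.81 in replicate 2, so that mono-SQ was lowest and tetra-SQ highest in each (slope 0.25 ± 0.07, SE). Pfn2, an actin-binding profilin, had 7.24, 7.41, 7.40 and 8 in replicate 1 and 7.63, 7.83, 7.85 and 8.38 in replicate 2, with the same slope of 0.23 in each. Usp6nl, a GTPase-activating protein for Rab proteins, had a slope of 0.23 with 9.37, 9.61, 9.60 and 10 in replicate 1 and 9.13, 9.13, 9.59 and 9.87 in replicate 2.

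The other 7 genes named for a positive slope were the Sin3 complex subunit Fam60a (0.27), the ciliary protein gene Fam161a (0.29), the vomeronasal receptor Vmn1r30 (0.29), the adhesion receptor Adgrf5 (0.32), the cytochrome c oxidase subunit Cox8c (0.30), the proton pump subunit Atp6v1g2 (0.26) and Ggct, an enzyme of glutathione breakdown (0.27). Adgrf5 shows how unlike the replicates could be: it had 10.64, 10.78, 10.97 and 10.85 in mono- to tetra-SQ of replicate 1 (slope 0.08) and 5.48, 6, 6.70 and 7.10 in replicate 2 (slope 0.56). Of the 11 genes described here, 4 (Glis3, Fbxo33, Usp6nl and Pfn2) were above the negative control median on all 8 arrays. Vmn1r30 was below it on all 8.

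Among the negative slopes with the smallest p-values, signals near background were common. Mad2l2, a subunit of the translesion polymerase zeta (GRCm38, chr4:148130158-148145704), had 5.64, 5.69, 5.14 and 4.89 in mono-, di-, tri- and tetra-SQ of replicate 1 and 5.6, 5.80, 5.27 and 4.49 in replicate 2. Tetra-SQ was the lowest in both, and the slope was -0.33 ± 0.08 (SE; 95% interval -0.51 to -0.15; adjusted p = 0.999, limma), but all 8 values lay below the negative control medians. The same held for the receptor Trem3 (slope -0.23) and the olfactory receptor Olfr1247 (-0.27). Zfp874b, a zinc finger gene, and Nckipsd, which binds the adaptor Nck, were above the negative control median on all 8 arrays. Zfp874b had 7.67, 7.31, 7.35 and 7.02 in replicate 1 and 7.76, 7.81, 7.45 and 7.16 in replicate 2 (slope -0.20). Nckipsd had 7.53, 7.73, 6.92 and 7.03 in replicate 1 and 7.21, 7.15, 6.58 and 6.65 in replicate 2 (slope -0.23), with mono- and di-SQ above tri- and tetra-SQ in each.

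Dfna5, which encodes the pore-forming gasdermin E, had the same split: 7.16, 7.17, 6.42 and 6.43 in replicate 1 and 6.78, 6.76, 5.77 and 6.29 in replicate 2 (slope -0.27). The remaining 6 were the forkhead gene Foxr2 (-0.27), the adaptor Dok4 (-0.21), Them6 (-0.29), the adhesion receptor Adgrd1 (-0.22), the mitochondrial glutaminase Gls2 (-0.29) and Camsap3, which binds microtubule minus ends (-0.24). Adgrd1 had 7.08, 6.72, 6.36 and 6.44 in replicate 1 and 7.19, 6.74, 6.39 and 6.62 in replicate 2, so that mono-SQ was highest and tri-SQ lowest in both. All 23 genes were chosen for the same sign of slope in both replicates, so that agreement is no result.

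**Figure D2:**
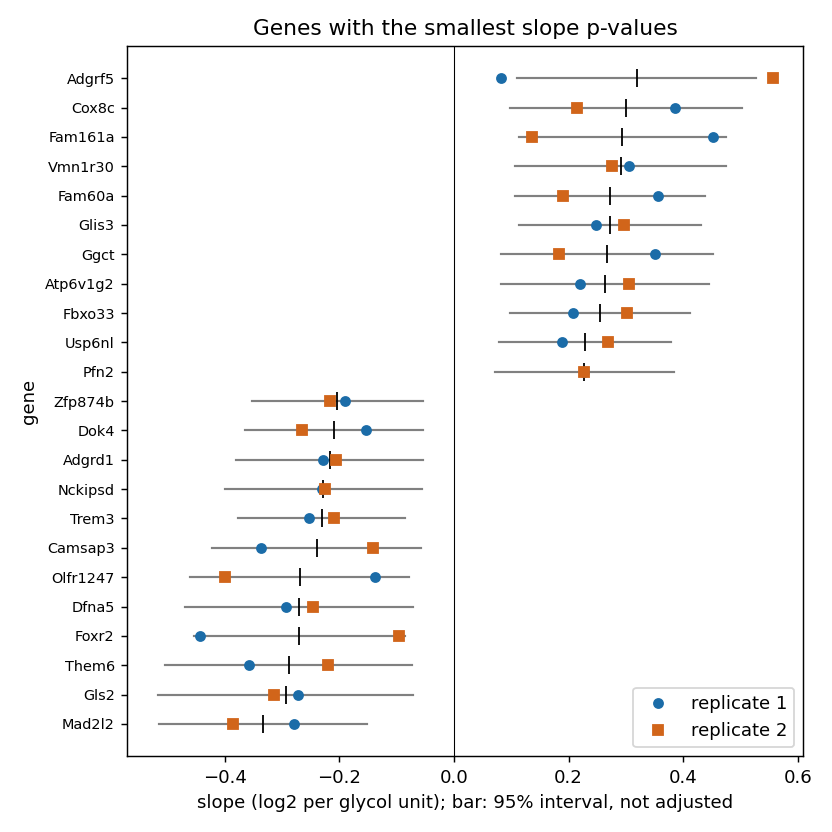
Slope per glycol unit (x axis, log2 units) of the 11 genes with positive and the 12 with negative slopes described here, from those with the smallest p-values (y axis). The tick is the slope of the fit, the grey bar its unadjusted 95% interval, the circle the slope in replicate 1 and the square that in replicate 2. The slopes of the fit run from -0.33 for Mad2l2 to 0.32 for Adgrf5, and none passed the test after adjustment.

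A steady order over the 4 compounds was rare in either direction. The signals climbed at each step from mono-SQ to tetra-SQ in both replicates for 34 probe sets (0.153%) and dropped at each step in both for 27 (0.122%), while 16 climbed in replicate 1 and dropped in replicate 2, and 19 did the reverse. Among the ordered genes with a level at or above the median of all values, chosen for their order with no test, was Slc35a3, the Golgi transporter for UDP-N-acetylglucosamine. It had 10.15, 10.32, 10.46 and 10.77 in mono- to tetra-SQ of replicate 1 and 9.17, 9.64, 9.70 and 9.77 in replicate 2. Lgmn, the lysosomal protease legumain, ran the other way, with 11.60, 11.53, 11.45 and 11.37 in replicate 1 and 12.76, 12.63, 12.51 and 12.39 in replicate 2. Atf6, a sensor of unfolded proteins, had 11.70, 11.77, 11.80 and 11.82 in replicate 1 and 11.29, 11.36, 11.56 and 11.62 in replicate 2. The replicates of these 3 genes differed in level but not in order, which is what they were chosen for.

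Across probe sets, which are not independent replicates, the slopes of replicates 1 and 2 were nearly uncorrelated. Pearson's r was 0.0066 over all 22206 probe sets and 0.0031 over the 11643 whose highest compound mean reached the median of all values. The slopes had the same sign for 49.7% of probe sets. Each slope within a replicate rests on 4 arrays, and the arrays of a replicate are shared by all probe sets. The test of slope in replicate 1 minus slope in replicate 2 called 0 probe sets (0%; smallest adjusted p 0.999, limma), with 610 at an unadjusted p under 0.05 (2.75%). That count was 957 without tetra-SQ replicate 1 and 1617 without tetra-SQ replicate 2. The correlation was -0.11 without tetra-SQ replicate 2 and 0.064 without tri-SQ replicate 2.

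**Figure D3:**
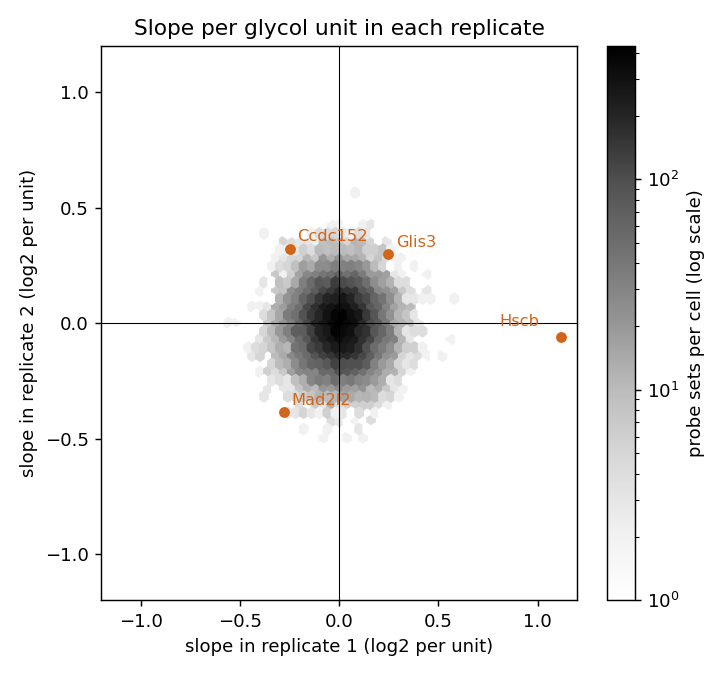
Slope per glycol unit in replicate 1 (x axis) against replicate 2 (y axis), both in log2 units per glycol unit, with the number of probe sets per cell in grey (log scale); 1 probe set lies outside the axes. The cloud is round (r = 0.0066), Glis3 and Mad2l2 lie in the corners of equal sign, and Hscb (1.12 and -0.06) and Ccdc152 (-0.25 and 0.32) do not.

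The genes whose slopes differed most between the replicates did so in different ways. Hscb, a co-chaperone of iron-sulfur cluster assembly (GRCm38, chr5:110829070-110839793), had 5.41, 7, 7.87 and 8.84 in mono- to tetra-SQ of replicate 1 and 5.86, 7.04, 5.35 and 6.22 in replicate 2. Its slope was 1.12 in replicate 1 and -0.06 in replicate 2, a difference of 1.18 ± 0.28 (SE; adjusted p = 0.999, limma). Mocs2, of molybdenum cofactor synthesis, had 8.04, 8.27, 8.91 and 9.69 in replicate 1 and 7.87, 8.15, 7.39 and 7.98 in replicate 2. In both genes tetra-SQ was highest in replicate 1 and di-SQ in replicate 2. Bach1, a heme-regulated repressor, went the other way, with 10.17, 10.21, 9.76 and 9.85 in replicate 1 and 10.68, 11.22, 11.33 and 11.83 in replicate 2. Arhgap32, a GTPase-activating protein, had 7.12, 7.01, 6.44 and 6.46 in replicate 1 and 6.79, 7.33, 8.13 and 7.74 in replicate 2. The other 12 named for this difference were Lsm11, Cpm, Lysmd3, Zfp37, Cml1 and Ypel4, with the higher slope in replicate 1, and Ccdc152, Adgrf5, Rgs16, Zfp511, Hemk1 and Ccl6, with the higher slope in replicate 2. None of the 16 passed the test.

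In each of the 8 genes named for their departure from a straight line, tri-SQ was the lowest or the highest of the 4 compounds in both replicates. They were chosen by a fit that favours the same shape in both replicates and a middle compound off the line. Their agreement between replicates is therefore no result. The promoters of Mmp3, a matrix metalloproteinase, and of Timp1, an inhibitor of metalloproteinases, are shown because tri-SQ was lowest for both genes; they run from 250 bases before to 50 after the gene start, on the plus strand of GRCm38.p6, from RefSeq. The capitals mark TGANTCA, a pattern that includes the binding motif of AP-1 factors and reads the same on both strands. Mmp3 lies at chr9:7445572-7445871 and Timp1 at chrX:20869916-20870215.
Mmp3: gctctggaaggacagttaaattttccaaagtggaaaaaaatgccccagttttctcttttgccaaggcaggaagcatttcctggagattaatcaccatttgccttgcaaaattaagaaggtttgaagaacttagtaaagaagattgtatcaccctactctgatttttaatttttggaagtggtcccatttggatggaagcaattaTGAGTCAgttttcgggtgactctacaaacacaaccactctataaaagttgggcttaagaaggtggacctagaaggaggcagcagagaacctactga
Timp1: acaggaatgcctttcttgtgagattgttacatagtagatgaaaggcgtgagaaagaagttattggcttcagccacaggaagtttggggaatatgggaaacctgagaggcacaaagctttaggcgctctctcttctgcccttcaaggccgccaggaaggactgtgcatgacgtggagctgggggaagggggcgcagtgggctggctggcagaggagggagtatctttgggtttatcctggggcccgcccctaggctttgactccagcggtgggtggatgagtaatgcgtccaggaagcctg
The pattern was found once for Mmp3, at position -46 from the start, and not for Timp1, and other forms were not searched. It was in 7.81% of the 32851 promoters of this length. Of the 8 genes named below, 6 had a promoter of this length and 1 (Mmp3) held the pattern. A match is a description of letters, not a binding site.

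Mmp3 had 10, 9.75, 8.72 and 10.40 in mono-, di-, tri- and tetra-SQ of replicate 1 and 13.28, 13.60, 11.81 and 13.50 in replicate 2, so that tri-SQ was lowest in each by over 1 log2 unit. Timp1 had 13.17, 12.91, 11.83 and 13.39 in replicate 1 and 14.00, 14.67, 12.92 and 14.29 in replicate 2. Itgbl1, a secreted protein with integrin-type EGF repeats, had 8.55, 8.32, 7.07 and 8.71 in replicate 1 and 11.75, 11.93, 10.76 and 12.22 in replicate 2. In all 3 genes the level differed between the replicates, while tri-SQ was below the others in both, a shared order that their choice favours. Prkg2, a cGMP-dependent protein kinase, had 10.24, 10.02, 8.99 and 10.62 in replicate 1 and 11.95, 11.73, 10.94 and 12.22 in replicate 2. Hmgn1, a nucleosome-binding protein, had 12.36, 12.16, 11.44 and 12.69 in replicate 1 and 12.39, 12.59, 11.36 and 12.92 in replicate 2.

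Tmem180 (Mfsd13a in RefSeq), Kcnrg and Espnl had the opposite shape, with tri-SQ highest in both replicates. Tmem180 had 6.89, 7.34, 8.27 and 6.69 in replicate 1 and 6.42, 7.20, 7.41 and 6.11 in replicate 2. Kcnrg, a potassium channel regulator, was below the negative control median on all 8 arrays, and Espnl on 7. None of the 8 departures passed the test: limma's F test of the curved terms called 0 probe sets (0%), the adjusted p was 0.484 for each of the 8, and 1931 probe sets had an unadjusted p under 0.05 (8.7%), and fits without tetra-SQ replicate 1 and without tri-SQ replicate 2 gave totals of 1213 and 2006. The straight-line slope of Mmp3 was -0.05 ± 0.19 and that of Timp1 -0.07 ± 0.17 (SE, which includes the distance from the line).

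**Figure D4:**
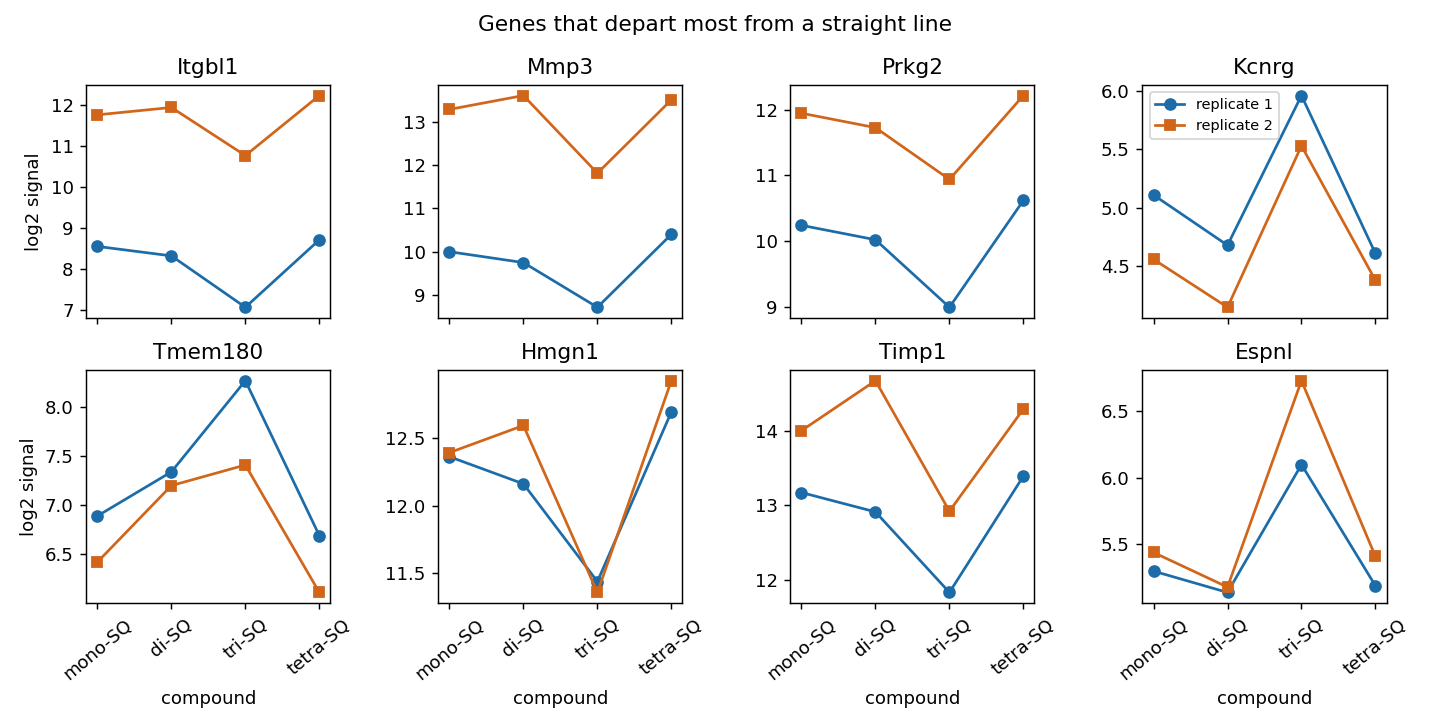
Log2 signal (y axes) of the 8 genes with the smallest p-values for departure from a straight line, in the arrays of mono-, di-, tri- and tetra-SQ (x axes), with circles for replicate 1 and squares for replicate 2. Tri-SQ is lowest in both replicates for Itgbl1, Mmp3, Prkg2, Hmgn1 and Timp1 and highest in both for Kcnrg, Tmem180 and Espnl.

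Tri-SQ was also the compound most often at an extreme over all probe sets. The arrays of tri-SQ lay further from the mean of their replicate than the other 6 (root mean square over probe sets 0.29 and 0.34, against 0.23 to 0.25), and the part of this in the counts was not tested. Within replicate 1 tri-SQ was lowest for 5902 probe sets (4848 to 5704 for the others) and highest for 6846 (4467 to 5497). Within replicate 2 it was lowest for 6579 (4999 to 5199) and highest for 6760 (4882 to 5230). Across probe sets, the deviations of a compound's 2 arrays from their replicate means correlated at 0.118 for tri-SQ and 0.175 for tetra-SQ. For mono- and di-SQ the values were 0.013 and -0.046. Tri-SQ was lowest in both replicates for 2061 probe sets (9.28%), against 1144 for mono-SQ, 1102 for di-SQ and 1695 for tetra-SQ, and highest in both for 2395 (10.8%), against 1010, 1051 and 1492. By over 0.5 log2 units from the nearest of the others, it was lowest in both replicates for 66 probe sets, against 6 for mono-SQ, 8 for di-SQ and 14 for tetra-SQ, and highest for 76, against 5, 10 and 7. Among these, chosen after their values were seen and with no test, was Dcn, the small matrix proteoglycan decorin, with 14.45, 14.28, 13.55 and 14.80 in mono- to tetra-SQ of replicate 1 and 16.44, 16.37, 15.6 and 16.35 in replicate 2. Mgp, matrix Gla protein, had 10.76, 10.56, 9.28 and 10.85 in replicate 1 and 11.68, 11.67, 10.75 and 11.48 in replicate 2. Spp1, the secreted phosphoprotein osteopontin, had 16.95, 16.64, 16.12 and 17.01 in replicate 1 and 17.80, 17.84, 17.07 and 17.59 in replicate 2. Tri-SQ was highest for Peg10, an imprinted gene derived from a retrotransposon, with 16.45, 16.74, 17.32 and 16.06 in replicate 1 and 10.02, 10.42, 11.14 and 10 in replicate 2. It was highest also for Abcc4, an exporter of cyclic nucleotides and prostaglandins, with 9.62, 9.62, 10.61 and 9.60 in replicate 1 and 7.28, 7.49, 8.40 and 7.61 in replicate 2.

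All 6 pairs of derivatives were compared at the same dose and time, with p-values adjusted over all probe sets and all 6 pairs together. No probe set passed in any pair (0% in each; smallest adjusted p 0.697, limma), and the median 95% interval of a difference reached 0.55 log2 units to either side. At an unadjusted p under 0.05 there were 784 probe sets (3.53%) for di-SQ minus mono-SQ, 897 (4.04%) for tetra-SQ minus di-SQ and 1051 (4.73%) for tetra-SQ minus mono-SQ. Pairs with tri-SQ had more: 1756 (7.91%) for tri-SQ minus mono-SQ, 1943 (8.75%) for tri-SQ minus di-SQ and 2553 (11.5%) for tetra-SQ minus tri-SQ. Whether these counts differ between pairs was not tested, and pairs that share a compound share its arrays. Without tri-SQ replicate 2 the last 3 counts were 2149, 2217 and 2492, and without tri-SQ replicate 1 they were 2900, 3084 and 3640. The tri-SQ minus mono-SQ count was 1075 without mono-SQ replicate 2, the tri-SQ minus di-SQ count 1198 without di-SQ replicate 2, and the tetra-SQ minus tri-SQ count 1439 and 1553 without tetra-SQ replicates 1 and 2.

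The pair 1 unit apart at the long end, tetra-SQ minus tri-SQ, was also the one whose replicates were most alike across probe sets. The differences of replicates 1 and 2 correlated at 0.215 in that pair and at 0.0016 to 0.084 in the other 5, as a description of probe sets that share arrays. Both replicates differed by over 1 log2 unit in the same direction for 68 probe sets in tetra-SQ minus tri-SQ and in opposite directions for 18. In the other pairs with tri-SQ, these counts were 36 and 11 for tri-SQ minus mono-SQ and 37 and 14 for tri-SQ minus di-SQ. In the pairs without it, they were 7 and 7 for di-SQ minus mono-SQ, 12 and 9 for tetra-SQ minus mono-SQ, and 4 and 7 for tetra-SQ minus di-SQ.

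Single genes nearest to the threshold in each pair had these sizes. Between tetra-SQ and tri-SQ, Mmp3 had 10.40 and 13.50 in tetra-SQ, against 8.72 and 11.81 in tri-SQ (replicates 1 and 2), a difference of 1.69 ± 0.25 (SE; 95% interval 1.12 to 2.25). Itgbl1 differed by 1.55 (95% interval 1.05 to 2.05) and Prkg2 by 1.46 (0.97 to 1.94). On the other side were Tmem180 (-1.44), Kcnrg (-1.25) and Iqcf3 (-1.78). Iqcf3 had 4.51 and 3.64 in tetra-SQ, against 6.09 and 5.61 in tri-SQ, and so lay near or below background. Without tri-SQ replicate 2 these differences were 1.53 for Mmp3, 1.68 for Itgbl1, 1.59 for Prkg2, -1.67 for Tmem180, -1.25 for Kcnrg and -1.93 for Iqcf3.

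Between tri-SQ and mono-SQ, the smallest p-values on the higher side were those of the secreted carbonic anhydrase Car6 (1.24), Tmem180 (1.19) and Abcc4 (1.06), and on the lower side those of Mmp3 (-1.38), Itgbl1 (-1.24) and Prkg2 (-1.13). Car6 had 8.82 and 6.63 in tri-SQ, against 7.65 and 5.33 in mono-SQ. Without tri-SQ replicate 2 the differences were 1.21 for Car6, 1.42 for Tmem180, 1.08 for Abcc4, -1.22 for Mmp3, -1.36 for Itgbl1 and -1.27 for Prkg2. Between tri-SQ and di-SQ, Kcnrg (1.33), Glipr1l2 (1.27) and Espnl (1.26) had the smallest p-values on the higher side and Mmp3 (-1.41), Tmie (-1.35) and Itgbl1 (-1.21) on the lower side. Without tri-SQ replicate 2 they stood at 1.33 for Kcnrg, 1.195 for Glipr1l2, 1.01 for Espnl, -1.25 for Mmp3, -1.46 for Tmie and -1.34 for Itgbl1. Tmie, a protein of the hair cell transduction complex, had 4.74 and 4.48 in tri-SQ, against 6.08 and 5.83 in di-SQ, so the groups did not overlap but lay near background. Glipr1l2 lay near background as well, with 5.62 and 5.81 in tri-SQ, against 4.49 and 4.41 in di-SQ.

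In the pairs without tri-SQ, the genes named are also those with the smallest p-values in each direction. Between di-SQ and mono-SQ, the DNA ligase Lig4 had 7.52 and 6.41 in di-SQ, against 6.30 and 5.54 in mono-SQ (difference 1.05, 95% interval 0.54 to 1.55), beside the transporter Abcg4 (1.01) and Tmie (0.86). On the other side, the ciliary gene Tctn2 had 6.27 and 7.34 in di-SQ, against 7.63 and 8.21 in mono-SQ (-1.12), beside Tph2, a serotonin synthesis enzyme (-0.99), and Spag8 (-0.88). Between tetra-SQ and di-SQ, Inhba, a subunit of activin A, had 8.78 and 10.05 in tetra-SQ, against 8.05 and 9.09 in di-SQ (0.85, 95% interval 0.33 to 1.36), beside the nuclear protein Akirin1 (0.83) and the synaptic adhesion gene Lrrc4c (0.92). The lower ones were Gls2 (-1.19), Mad2l2 (-1.06) and Aldh4a1, an enzyme of proline breakdown (-1.05). Between tetra-SQ and mono-SQ, the widest step in chain length, the protease gene Adam8 had 5.51 and 6.98 in tetra-SQ, against 4.58 and 5.98 in mono-SQ (0.97, 95% interval 0.49 to 1.44), beside Glis3 (0.90) and Fbxo33 (0.87). Iqcf3 (-1.38), Mad2l2 (-0.93) and Camsap3 (-0.86) were on the other side. Among the genes near background in the arrays compared were Abcg4 (4.49 to 5.89), Spag8 (5.12 to 6.13) and Tmie (4.87 to 6.08). So were Lrrc4c (4.84 to 6.28) and Iqcf3 (3.64 to 5.47).

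The mature adipocyte and lipolysis lists had small negative median slopes over the chain length series. The adipogenic transcription factors had a small positive one (0.019, 12 of 16 positive, 0 called). Of 28 mature adipocyte genes measured, 0 passed the slope test in either direction (background 0%). There were 8 positive and 20 negative slopes, with a median of -0.049, against -0.001 over all 21154 symbols. The mature adipocyte median was -0.0285 in replicate 1 and -0.0525 in replicate 2. It ran from -0.077 to -0.031 over other scalings and with single arrays left out. Adipoq, the hormone adiponectin, had 18.07, 18, 18.01 and 17.97 in mono- to tetra-SQ of replicate 1 and 15.18, 15.32, 14.05 and 14.70 in replicate 2. Cfd, the protease adipsin, had 15.82, 15.30, 15.33 and 15.77 in replicate 1 and 10.66, 11.11, 9.40 and 10.06 in replicate 2, and Car3, a carbonic anhydrase of fat cells, 8.52, 8.19, 7.41 and 8.04 in replicate 1 and 6.44, 6.44, 5.86 and 5.88 in replicate 2. Car3 had nearly the same order in both replicates, with mono-SQ highest (tied with di-SQ in replicate 2) and tri-SQ lowest, while Adipoq and Cfd did not keep one order. Of 16 lipolysis genes, 12 had negative slopes (median -0.048, 0 called), among them Pnpla2, the first enzyme of triglyceride breakdown, with 15.85, 15.99, 16.06 and 15.46 in replicate 1 and 12.12, 12.29, 12.37 and 11.60 in replicate 2. In that gene tetra-SQ was lowest and tri-SQ highest in both replicates. The lipolysis median was -0.035 in replicate 1 and -0.0515 in replicate 2, and ran from -0.061 to -0.028 over the same alternatives.

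Lipid synthesis lists had median slopes near 0. Of 20 lipogenesis genes, 6 had positive and 14 negative slopes (median -0.014, 0 called), and the median ran from -0.042 to 0.013 over other scalings and with single arrays left out. Acly, which supplies cytosolic acetyl-CoA, had 13.72, 13.65, 13.69 and 13.24 in mono- to tetra-SQ of replicate 1 and 11.83, 12.16, 11.92 and 11.63 in replicate 2, lowest in tetra-SQ in each. Agpat2, of triglyceride assembly, had 14.56, 14.44, 14.43 and 14.45 in replicate 1 and 12.76, 13.12, 11.89 and 12.68 in replicate 2, and Acacb, which makes malonyl-CoA, 6.14, 5.72, 6.18 and 6 in replicate 1 and 5.98, 5.96, 6.61 and 6.36 in replicate 2. Of 25 cholesterol synthesis genes, the pathway that squalene belongs to, 9 had positive and 16 negative slopes (median -0.012, 0 called). Fdps, which makes farnesyl diphosphate, had 12.16, 12.14, 11.92 and 12.32 in replicate 1 and 10.58, 10.57, 9.22 and 10.17 in replicate 2. Hsd17b7, a sterol ketone reductase, had 13.57, 13.68, 13.80 and 13.66 in replicate 1 and 12.10, 12.11, 12.46 and 12.46 in replicate 2, and Acat2, which joins acetyl-CoA units, 13.45, 13.51, 13.41 and 13.29 in replicate 1 and 12.11, 12, 11.70 and 11.85 in replicate 2. The largest of these steps, that of Fdps in tri-SQ replicate 2, lies in the array that stood apart.

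Inflammatory mediators were split evenly, with 14 positive and 15 negative slopes of 29 (median -0.009, 0 called), and the signs in the 2 replicates were the same for 9. Lcn2, the iron-binding protein lipocalin 2, had 5.41, 5.24, 4.73 and 6.58 in mono- to tetra-SQ of replicate 1 and 4.98, 5.09, 4.53 and 5.08 in replicate 2. The cytokine Il18 had 5.55, 5.88, 6.18 and 6.48 in replicate 1 and 6.32, 6.58, 5.51 and 6.69 in replicate 2, and the chemokine Ccl8 6.28, 5.73, 6.09 and 6.16 in replicate 1 and 7.55, 7.33, 6.97 and 6.83 in replicate 2. The 24 values of these 3 genes lay between 4.53 and 7.55, beside negative control medians of 6.09 to 6.66. Over the 33 lists, 0 members passed the slope test, and median slopes lay between -0.066 for chondrocyte markers and 0.025 for the unfolded protein and integrated stress response.

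Some lists had slopes of one sign in replicate 2 and of the other in replicate 1. Of 22 cytosolic ribosomal protein genes, 17 had a positive slope in replicate 1 (median 0.051) and 1 in replicate 2 (median -0.125), and their slopes had the same sign for 4. Rpl8, of the large subunit, had 15.67, 15.58, 15.52 and 15.74 in mono- to tetra-SQ of replicate 1 and 15.58, 15.55, 14.30 and 15.42 in replicate 2. Rps9, of the small subunit, had 12.16, 11.88, 11.77 and 12.37 in replicate 1 and 12.49, 12.74, 10.84 and 12.31 in replicate 2. Of 24 oxidative phosphorylation genes, 15 had a positive slope in replicate 1 (median 0.019) and 1 in replicate 2 (median -0.099). Cox4i1, a subunit of cytochrome c oxidase, had 13.69, 13.56, 13.82 and 13.57 in replicate 1 and 12.37, 12.50, 12.12 and 11.62 in replicate 2. Over all symbols, 10511 of 21154 had slopes of the same sign (49.7%).

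The lists described next were chosen after their values were seen and get no test. In tetra-SQ minus tri-SQ, 24 of 27 cell cycle genes were higher and 3 lower (median 0.505, against -0.02 over all symbols, of which 10081 were higher and 11036 lower), with medians of 0.48 in replicate 1 and 0.30 in replicate 2. Cdc20, an activator of the anaphase-promoting complex, had 6.36 and 6.82 in tetra-SQ, against 4.29 and 6.51 in tri-SQ. In tri-SQ minus mono-SQ, 23 of 27 were lower (median -0.285, with -0.19 without mono-SQ replicate 1 and -0.46 without mono-SQ replicate 2). In tri-SQ minus di-SQ 22 were lower (median -0.375, with -0.13 without di-SQ replicate 2 and -0.22 and -0.23 without tri-SQ replicates 1 and 2). These contrasts share the tri-SQ arrays. Without tri-SQ replicate 2, the cell cycle median of tetra-SQ minus tri-SQ was 0.38. Over the whole series the cell cycle slope was 0.004, with -0.047 without tetra-SQ replicate 1 and 0.040 without tri-SQ replicate 1.

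All 22 ribosomal protein genes were higher in tetra-SQ minus tri-SQ (median 0.498, 0.36 in replicate 1 and 0.595 in replicate 2). In the fit over both replicates, all 22 were lower in tri-SQ minus mono-SQ (median -0.50) and in tri-SQ minus di-SQ (median -0.49). The tri-SQ minus mono-SQ median was -0.15 in replicate 1 and -0.705 in replicate 2, with 16 of 22 lower in both. For tri-SQ minus di-SQ it was -0.025 and -0.73, with 10 lower in both. The medians over both replicates moved by over 1.5 times with 1 array: without tri-SQ replicate 2 the 3 medians were 0.20, -0.16 and -0.12. The second was -0.30 without mono-SQ replicate 2. Of 34 interferon-stimulated genes, 26 were higher in tetra-SQ minus tri-SQ (median 0.24, and 0.18 without tri-SQ replicate 2), and 27 lower in tri-SQ minus mono-SQ (median -0.165, with -0.28 without tri-SQ replicate 1, -0.099 without tri-SQ replicate 2 and -0.098 without mono-SQ replicate 2). The tri-SQ minus mono-SQ median was -0.01 in replicate 1 and -0.32 in replicate 2, with 14 of 34 lower in both. For tetra-SQ minus tri-SQ it was 0.145 and 0.375, with 20 higher in both.

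Matrix remodelling enzymes had their lowest median in tri-SQ in replicate 1 but not in replicate 2. Of 21, 17 were higher in tetra-SQ minus tri-SQ (median 0.21), with medians of 0.44 in replicate 1 and 0.01 in replicate 2, so that the median was 0.03 without tri-SQ replicate 1 and 0.49 without tri-SQ replicate 2. In tri-SQ minus mono-SQ, 16 of 21 were lower (median -0.225), with 0.03 without tri-SQ replicate 1 and -0.55 without tri-SQ replicate 2. Lipogenesis genes ran the opposite way to the cell cycle list, with 16 of 20 lower in tetra-SQ minus tri-SQ (median -0.20, -0.305 in replicate 1 and -0.15 in replicate 2) and 14 of 20 higher in tri-SQ minus mono-SQ (median 0.17, with 0.09 without mono-SQ replicate 2 and 0.10 without tri-SQ replicate 1). The first of these medians was -0.12 without tetra-SQ replicate 1 and -0.32 without tetra-SQ replicate 2. In tetra-SQ minus di-SQ, 18 of 20 lipogenesis genes were lower (median -0.17). In tri-SQ minus di-SQ, 11 were higher and 9 lower (median 0.0225, with 0.11 in replicate 1 and -0.04 in replicate 2). That median was 0.13 without tri-SQ replicate 2 and -0.06 without tri-SQ replicate 1. Mature adipocyte genes had 17 of 28 lower in tetra-SQ minus tri-SQ (median -0.16), with -0.22 without tri-SQ replicate 2, -0.11 when each array was centred on its median and -0.26 after quantile normalization. In tetra-SQ minus di-SQ, 23 of the 28 were lower (median -0.23), and in tetra-SQ minus mono-SQ 20 were (median -0.145). Tri-SQ minus di-SQ had 14 higher and 14 lower (median 0.02), and tri-SQ minus mono-SQ 15 higher and 12 lower (median 0.0475). No member of any of these lists passed the test in any pair. 

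**Figure D5:**
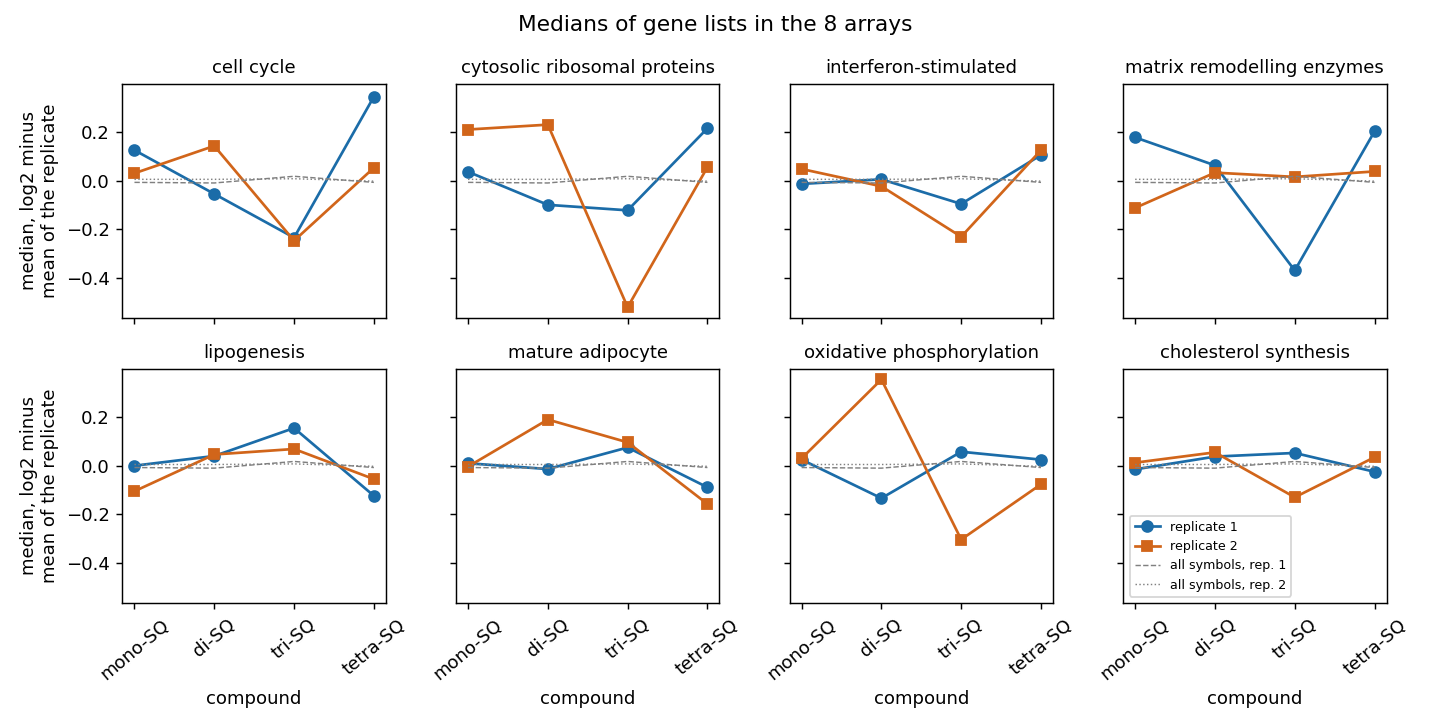
Median over the members of 8 gene lists (y axes) of log2 signal minus the gene's mean over the 4 arrays of the same replicate, in mono-, di-, tri- and tetra-SQ (x axes), with circles for replicate 1, squares for replicate 2 and grey lines for all symbols. The cell cycle median is lowest in tri-SQ in both replicates (-0.235 and -0.248), while ribosomal proteins are at -0.12 in tri-SQ of replicate 1 and -0.52 in tri-SQ of replicate 2, and matrix remodelling enzymes are low in tri-SQ of replicate 1 only (-0.37 and 0.015).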

How the data were processed

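Total RNA of 3T3-L1 cells was hybridized to Clariom S mouse arrays. The deposited values are log2 signals, as the file headers state, which the authors obtained by SST-RMA (design text: Transcriptome Analysis Console 4.0.1); the annotation is of build mm10, per the file headers. Control and spike-in probe sets were read from the series' value table, also deposited on a log2 scale, which differed from the first by a median absolute 0.0805 to 0.0818 per array. Sequences and coordinates come from RefSeq's GRCm38.p6 tables, in which all 62 named genes of the tests matched.

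The 8 arrays of the 4 derivatives, coded by 1 to 4 glycol units, entered limma (3.58.1; R 4.3.3; lmFit and eBayes, two-sided tests, Benjamini-Hochberg over 22206 probe sets, threshold 0.05). The fits were a slope with the replicate number as a block (5 residual degrees of freedom), a slope per replicate (4), the 6 pairs (3, adjusted also over pairs) and the curved terms. No low signals were filtered. Arrays of the same replicate number deviated together from their compound means (r of 0.644 to 0.719), so the number was treated as pairing the arrays, from the data. The fits were run on simulated data with independent noise per probe set and array. Those data hold no shift of a single whole array, so the run says nothing about such shifts. Means of the same probe set are compared; levels of different probe sets are not. The number of arrays limits the precision.

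The members, lists, motif and promoters, and the counts at unadjusted p, were chosen with earlier results of these data known. The 33 lists have 656 distinct symbols, 633 of them measured; 22 share a probe set with another gene and 1 was not found. Genes are named from probe sets with 1 symbol, without predicted loci, whose highest compound mean reaches the median of all values: the 12 smallest p-values for a slope in each direction with equal sign in both replicates, 8 in each direction for the difference in slope, 8 for departure, 3 in each direction for each pair, and the largest slopes of a list. Of the genes with a positive slope, 1 is not reported here. Symbols are those of the files, and probe sets with several genes were left out. Alternatives were no block, the second table, centring, quantile normalization, brighter probe sets, an intensity trend with robust prior, log2 units, and leaving out arrays or compounds.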

Additional observations from a re-analysis of the deposited data

Results flagged for a closer look

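Spike-in probe sets, which carry RNA added in the laboratory and no mouse transcript, were read from the second deposited table. In tri-SQ replicate 2, the poly-A spike-ins dap (8.60), thr (7.53) and phe (6.03) were over 0.5 log2 units above the higher of the 2 control arrays (7.84 for dap, 6.48 for thr and 5.42 for phe). In tetra-SQ replicate 1, thr (6.99) also was, by 0.51. The other 7 derivative arrays had dap at 7.19 to 7.82, and the hybridization spike-in bioB lay at 8.01 to 8.61 in all 8. The gap of 0.5 was chosen after the array values were known. Groups of 2 arrays were too small for an outlier test.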

How the results depend on the processing

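No probe set passed the threshold for the slope, the difference in slope, the departure or any pair under any alternative, and all 1296 recomputed values of the 84 gene results named in the text kept their sign; the smallest adjusted p among them was 0.0779, for the departures of Itgbl1, Mmp3 and Prkg2 with an intensity trend and a robust prior. The number at an unadjusted p under 0.05 was less stable. With no replicate block it was 444 for the slope, 615 for the departure, and 305, 636, 404, 761, 322 and 966 for the pairs di-mono, tri-mono, tetra-mono, tri-di, tetra-di and tetra-tri; the gap between the replicates then enters the residual. With brighter probe sets only, which tests fewer of them, it was 330 for the slope, 239 for the difference, 1194 for the departure, and 323, 1111, 474, 1166, 432 and 1660 for the same pairs. The slope count was 1518 without both tri-SQ arrays and 1492 without both tetra-SQ arrays; the cause was not tested.

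Leaving out 1 array, the difference count ran from 448 to 1617, the departure count from 1213 to 2817, tri-mono from 1075 to 2900, tri-di from 1198 to 3084 and tetra-tri from 1439 to 3640, and the correlation of slopes from -0.1105 to 0.0639. For gene lists, both the spread and the set of lists judged here were chosen after the outcome was seen, and both choices lowered the number of list medians counted as moved. Judged by each list's own SD between its 2 replicates, as first done, 244 of 1617 recomputed medians over all 33 lists moved by more than the spread; judged by an SD pooled over the lists (0.0393 for slopes), 57 did. Over the 30 list medians examined here, the numbers were 60 of 372 by the own SD and 22 by the pooled one, and 36 changed sign. The values below are those past the pooled SD. Median slopes without both tri-SQ arrays were 0.0596 for cell cycle and 0.0425 for matrix remodelling. With 1 array left out, median slopes ran from -0.0471 to 0.0403 for cell cycle, -0.1168 to 0.0075 for ribosomal proteins, -0.0871 to 0.0421 for matrix remodelling and -0.1032 to -0.0179 for chondrocyte markers. Ribosomal medians ran from -0.7067 to -0.1608 (tri-mono), -0.6683 to -0.115 (tri-di) and 0.1958 to 0.7333 (tetra-tri), matrix remodelling from -0.5467 to 0.0267, -0.5183 to -0.0233 and 0.0317 to 0.4867, and cell cycle tri-di from -0.44 to -0.1267. Signals near the negative controls bound what can be read for dim genes.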

Other observations

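Outside the comparisons above, replicate 2 differed from replicate 1 in whole lists. The extracellular matrix (23 of 25), matrix remodelling (18 of 21), immediate early (25 of 31), cell cycle (25 of 27) and interferon-stimulated (32 of 34) genes had higher means in replicate 2, with median shifts of 0.82, 1.67, 1.24, 1.15 and 0.88 log2 units (replicate 2 minus replicate 1, over the 4 compounds). The oxidative phosphorylation (24 of 24), fatty acid oxidation (21 of 23), cholesterol synthesis (24 of 25) and mature adipocyte (27 of 28) genes had lower means in replicate 2, with median shifts of -1.24, -1.24, -1.36 and -2.73. The shift over all probe sets was over 1 log2 unit for 2025 of 22206. These shifts were not tested.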
